A study of Mus musculus with 12 samples.

Results

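The perinuclear theca is the protein shell that lies between the nucleus and the overlying membranes of the sperm head. The set described here holds 10 mouse genes that encode structural proteins of this shell or actin-related proteins of the sperm head: Ccin, Cylc1, Cylc2, Actl7a, Actl7b, Actl9, Actrt1, Actrt2, Actrt3 and Capza3. They were chosen by name for what their proteins are, with earlier results of these data known, and matched to the contigs of the count table by gene symbol without regard to case. A contig is 1 reference transcript to which reads were assigned. Each gene had 1 contig, so the set covered 10 of the 12114 contigs counted, and all 10 passed the filter that left 11831 contigs for testing.

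Transcripts were counted by nanopore direct RNA sequencing, which reads native poly(A) RNA without copying it, in 12 libraries of sorted mouse spermatids. There were 3 libraries in each of 4 groups: round (RS) or elongated (ES) spermatids, each from adult wt/wt and from adult dcat/dcat males. The dcat allele of Tent5c, on a C57BL/6 background, encodes a protein without catalytic activity, where the intact enzyme adds adenosines to the tails of mRNA. Spermatids were sorted by Hoechst and propidium iodide staining and light scatter, and RNA of 3 mice was pooled in each library. The allele is a germline change, so somatic cells of the dcat/dcat testis carried it too, and all groups shared the sort and the selection on oligo(dT) beads. The 3 libraries of a group therefore stand for separate pools of animals, and the spread between single mice cannot be read from them.

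Spermatids remodel the nucleus and the acrosome after meiosis, and the theca is laid down around the nucleus as the head takes shape. Its part under the acrosome ties the acrosomal vesicle to the nuclear envelope, and its part behind the acrosome, the calyx, is rich in basic cytoskeletal proteins. Divergent actin-related proteins that are made almost only in the testis are built into both parts. Transcription stops while spermatids elongate, so later proteins are made from mRNA that was stored earlier. A level here is a share of the poly(A) RNA of a library, and in such bulk samples fewer cells of a type and less RNA per cell cannot be told apart.

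On build GRCm38, 7 of the 10 genes are annotated as a single exon, and 5 of them lie on chromosome 4. Actl7a (chromosome 4, 56743413 to 56744925, plus strand) and Actl7b (56740005 to 56741443, minus strand) stand head to head, with 1969 bases between them. Ccin (43983483 to 43985423, plus), Actrt2 (154666433 to 154667867, minus) and Cylc2 (51216678 to 51228821, plus, 4 exons) share that chromosome. Actl9 lies on chromosome 17 (33432896 to 33434268, plus), and Actrt3 has 2 exons on chromosome 3 (30597073 to 30599939, minus). Actrt1 (46329007 to 46330345, plus) and Cylc1 (111110418 to 111125854, plus, 6 exons) are on chromosome X. Capza3 (140041557 to 140042778, plus) begins on chromosome 6 at 100 bases from Plcz1, which runs on the minus strand. The only Cylc2 contig counted is annotated as a processed transcript rather than as a coding one, and whether reads of the coding transcript were assigned to it cannot be told from the counts. Gm26657 (56740070 to 56741377, plus) lies on the strand opposite to Actl7b over 1308 of its bases and has a contig of its own in the count table. No strand setting was given for the assignment of reads, so the counts alone do not tell the reads of these genes apart. The level of Actl7b is thus uncertain by the reads of Gm26657, which are given with it. None of the other 9 genes overlapped another counted contig.

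The 6 actin-related genes are clearly separate in sequence. Aligned over their coding sequences, Actrt1 and Actrt2 were the most alike pair, at 71.0% identity, followed by Actl7a and Actl7b at 67.1%. The other pairs ran from 60.6% (Actrt2 and Actl9) to 65.0% (Actrt3 and Actl9). Against Actb, the beta-actin of all cells, the 6 genes had 61.3% (Actrt1) to 66.1% (Actl7b) identity.

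Promoter sequence was available for 8 of the genes, as 250 bases before the start and 50 after it in RefSeq on build GRCm38.p6. Spermatid genes are often driven by CREM, a factor of the CREB family that binds the cyclic AMP response element TGACGTCA. These letters, which read the same on both strands, and the related letters TGATGTCA (TGACATCA on the other strand) were searched in the 250 bases before each RefSeq start. Both searches were chosen after the promoters had been read. The first was in 1.55% and the second in 2.93% of 32851 promoters, and 4.43% held at least 1 of them. Among the 8 genes, Ccin held the first, Actl7a, Actl7b, Actl9 and Cylc1 held the second, and the 3 Actrt genes held neither in this window. The stretches around the 5 matches are shown because the head-to-head genes Actl7a and Actl7b, which moved in opposite directions below, both have one. They are written 5′ to 3′ on the strand of the gene, with the matched letters in capitals, and they end before the first annotated base of the gene. The distance given runs from the first matched base to the start printed above for the gene. A match is a description of the letters and says nothing about the binding of a factor.
Ccin, chr4:43983428-43983482, plus strand, match begins 29 bases before the start: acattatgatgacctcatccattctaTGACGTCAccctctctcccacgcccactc
Actl7a, chr4:56743356-56743412, plus strand, match begins 31 bases before the start: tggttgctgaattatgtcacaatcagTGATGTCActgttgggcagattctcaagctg
Actl7b, chr4:56741444-56741487, minus strand, match begins 18 bases before the start: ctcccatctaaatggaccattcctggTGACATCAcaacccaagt
Actl9, chr17:33432813-33432872, plus strand, match begins 57 bases before the start: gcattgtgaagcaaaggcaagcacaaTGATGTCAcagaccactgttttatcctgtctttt
Cylc1, chrX:111110360-111110417, plus strand, match begins 32 bases before the start: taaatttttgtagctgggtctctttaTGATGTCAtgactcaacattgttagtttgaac

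Total counts ran from 337287 to 1359427 per library, and a floor of 3 counts corresponded to 2.21 to 8.89 CPM, that is, counts scaled to a library total of 1000000. Of 11 contigs of the late spermatid genes Prm1, Prm2, Tnp1, Tnp2, Odf1, Smcp and Akap4, 10 were called higher in ES than in RS of wt/wt males. A second spermatid list, Acrv1, Spaca1 and Acr, went the other way. Of its 4 contigs, 3 were called lower in ES in wt/wt males and 2 in dcat/dcat males, and 0 higher. Summed, it stood at 562 to 693 CPM of total counts over the RS libraries and at 201 to 243 over the ES libraries. Summed Leydig cell markers (6 of 10 listed genes were in the table) stood at 19.0 to 56.6 CPM of total counts over the RS libraries, and at 193 to 842 over the ES libraries. Summed Sertoli cell markers (7 of 12 genes) stood at 17.7 to 81.0 and at 264 to 547 CPM, and meiotic markers (10 of 12 genes) at 1347 to 1647 and at 563 to 709. None of the somatic markers in the table was at 0 in a whole group. Both somatic lists therefore moved with stage, in all 7 Leydig and all 9 Sertoli contigs tested, and their part in the changes below was not tested. The Leydig list includes Insl3 and Ptgds, and the authors report both transcripts in ES as well as in Leydig cells. The summed Leydig level is thus not a measure of Leydig cells alone. Tent5c in RS stood at 310.4 ± 61.8 CPM (wt/wt) and 343 ± 65.0 CPM (dcat/dcat), and in ES at 862 ± 46.3 and 990.5 ± 116 CPM (mean ± SD, n = 3). The dcat allele alters the protein, so this level does not check the genotype.

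The first question was how these transcripts change in share as round spermatids elongate. In wt/wt males, 9 of the 10 genes rose from RS to ES and 1, Actl7b, fell. The rises ran from 2.08-fold for Actl7a to 5.35-fold for Actrt1, and the fall of Actl7b was 1.72-fold. The same 10 genes were called in the same directions in dcat/dcat males. The calls rest on edgeR's quasi-likelihood test at a Benjamini-Hochberg adjusted p (q) at or under 0.05, and 23.8% of all contigs tested were called higher and 16.5% lower in wt/wt males, with 24.0% and 16.9% in dcat/dcat males. The median log2 change of the 10 genes was 1.83 in wt/wt and 1.72 in dcat/dcat, beside -0.24 and -0.18 over all contigs tested. Together the 10 genes took 0.225% to 0.261% of the reads of an RS library and 0.341% to 0.391% of an ES library.

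**Figure D1:**
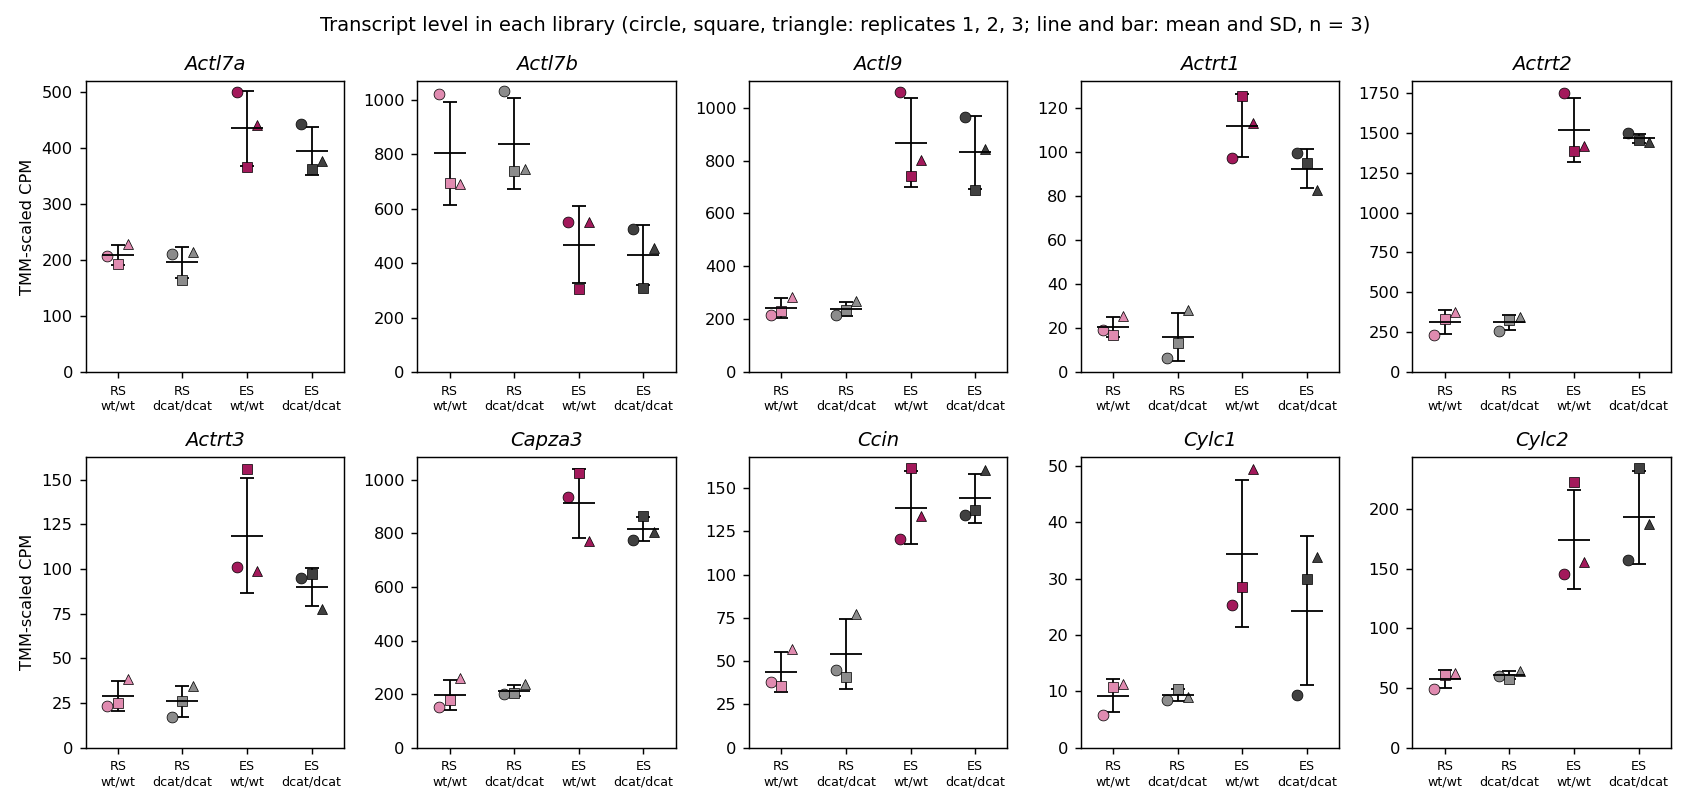
Level of each of the 10 genes in the 12 libraries, in CPM after TMM scaling on a linear axis from 0, with replicates 1, 2 and 3 as circles, squares and triangles and the mean and SD of 3 libraries as line and bar. In 9 panels the ES groups lie above the RS groups, apart from 1 low Cylc1 library in ES dcat/dcat at 9.27 CPM, and in the Actl7b panel they lie below.

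Separation by library gave nearly the same picture. In wt/wt males all 3 ES libraries lay above all 3 RS libraries for the 9 genes that rose, and all below for Actl7b. Over all contigs, 25.9% separated upwards in this way and 27.3% downwards. Among dcat/dcat libraries 8 genes separated upwards and Actl7b downwards, beside 25.7% and 25.2% of all contigs. Cylc1 was the gene whose ranges overlapped.

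The scaling matters for the size of these changes. TMM scaling, which allows for transcripts that take up much of a library, left the median contig 0.24 lower in ES on the log2 scale in wt/wt males. With total counts as the only scaling that median was -0.96, with -0.85 in dcat/dcat males, and the share of calls that were higher fell from 59.0% to 26.5% in wt/wt males. All 10 genes kept their direction under it, but Actl7a was no longer called in either genotype, at a log2 change of 0.34 (q = 0.0896) in wt/wt and 0.33 (q = 0.108) in dcat/dcat. Levels below are CPM after TMM scaling, and changes are on the log2 scale with their standard error (SE).

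**Figure D2:**
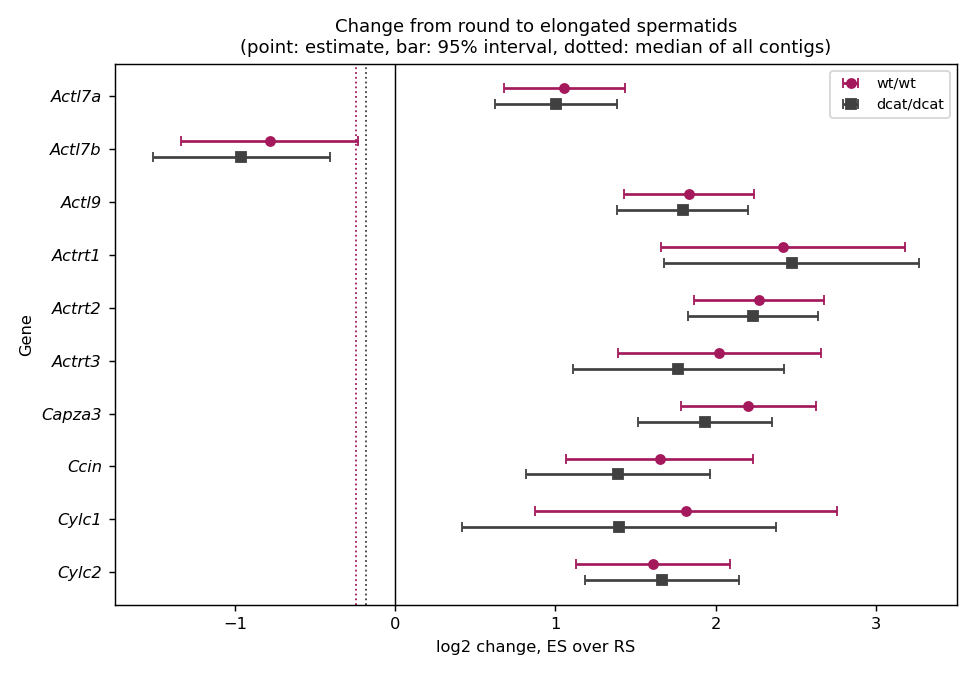
Log2 change from RS to ES for each gene in wt/wt (circles) and dcat/dcat (squares), with 95% intervals, and the median of all contigs as dotted lines at -0.24 and -0.18. Intervals of 9 genes lie wholly above 0 and those of Actl7b wholly below 0, in both genotypes.

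Among the structural proteins of the calyx, Ccin encodes calicin, a kelch-repeat protein that is needed to shape the sperm head. In RS wt/wt it stood at 38.2, 35.7 and 56.8 CPM in replicates 1 to 3, and then at 120.4, 162 and 134 CPM in ES wt/wt. In dcat/dcat males it stood at 44.9, 40.6 and 77.5 CPM in RS and at 134, 137 and 160.4 CPM in ES. Every ES library was above every RS library, and replicate 3 was the highest RS library in both genotypes. The log2 change was 1.65 (SE 0.27, q = 2.55e-04) in wt/wt and 1.39 (SE 0.27, q = 8.92e-04) in dcat/dcat, which are rises of 3.14-fold and 2.62-fold.

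Cylc1 and Cylc2 encode the cylicins, basic proteins of the calyx. Cylc1, on chromosome X, was the most thinly counted of the set, with 4 to 20 reads per library. It stood at 5.82, 10.7 and 11.2 CPM in RS wt/wt and at 25.4, 28.5 and 49.4 CPM in ES wt/wt. The dcat/dcat libraries gave 8.55, 10.5 and 9.06 CPM in RS and 9.27, 30.0 and 34 CPM in ES. The 2 stages did not overlap in wt/wt males, whereas ES dcat/dcat replicate 1, with 4 reads, lay within the range of RS, so that ES was higher in 8 of 9 pairs of libraries. As log2 changes these were 1.82 (SE 0.44, q = 0.00440) for wt/wt and 1.40 (SE 0.46, q = 0.0246) for dcat/dcat.

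The Cylc1 call in dcat/dcat males rested on few reads and did not survive several left-out libraries. Without RS replicate 1 the log2 change was 1.34 (q = 0.0592), and without RS replicate 3 it was 1.36 (q = 0.0629). Without ES replicate 2 it was 1.29 (q = 0.0746), and without ES replicate 3 it was 1.08 (q = 0.149). With total counts as the only scaling it was 0.74 (q = 0.189). Over these and the other settings Cylc1 stayed higher in ES, and in wt/wt males its q reached 0.0473 at most.

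Cylc2 was counted more deeply, with 44 to 117 reads per library. Its level was 49.0, 60.8 and 62.7 CPM in RS wt/wt and 146, 223 and 155 CPM in ES wt/wt. The levels in dcat/dcat males were 59.8, 57.7 and 64.3 CPM in RS and 158, 235 and 187 CPM in ES. The highest RS library, at 64.3 CPM, lay far below the lowest ES library, at 146 CPM, and replicate 2 was the highest ES library in both genotypes. The Cylc2 contig rose by 1.61 (SE 0.23, q = 6.30e-05) in wt/wt and by 1.67 (SE 0.23, q = 4.87e-05) in dcat/dcat on the log2 scale, and as a processed transcript it may not stand for the mRNA that encodes cylicin.

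In the Actl7 pair the directions were opposite, and Actl7b was the only gene of the whole set that fell. ACTL7A helps to anchor the acrosome to the nucleus and ACTL7B is needed for the shaping of elongating spermatids. Actl7a stood at 206, 193 and 228 CPM in RS wt/wt and at 499, 365 and 441 CPM in ES wt/wt. With the dcat allele it stood at 210.5, 164 and 213 CPM in RS and at 443, 362 and 377 CPM in ES. All ES libraries were above all RS libraries, and replicate 2 was the lowest in each of the 4 groups. The rise was 2.08-fold in wt/wt (95% interval 1.60 to 2.70, q = 2.80e-04) and 2.01-fold in dcat/dcat (1.54 to 2.61, q = 4.27e-04), the smallest of the set in each genotype.

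Actl7b stood at 1023, 694 and 691 CPM in RS wt/wt and at 549, 304 and 551 CPM in ES wt/wt. The dcat/dcat libraries stood at 1032, 738 and 746 CPM in RS and at 526, 310 and 456 CPM in ES. All ES libraries were below all RS libraries in each genotype. Replicate 1 was the highest RS library and replicate 2 the lowest ES library in both genotypes. The log2 change was -0.78 (SE 0.26, q = 0.0255) in wt/wt and -0.96 (SE 0.26, q = 0.00836) in dcat/dcat, a fall to 0.581 and 0.514 of the RS level. In wt/wt males 28.3% of all contigs had a lower change than Actl7b, and in dcat/dcat males 20.1%.

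The overlapping contig of Gm26657 took reads unevenly between libraries. In RS it had 1, 107 and 262 reads for wt/wt and 1, 81 and 151 for dcat/dcat, by replicate. In ES it had 0, 20 and 0 reads for wt/wt and 0, 9 and 19 for dcat/dcat. The RS reads were 0.0812%, 15.5% and 18.3% (wt/wt) and 0.103%, 12.6% and 14.3% (dcat/dcat) of the reads of both contigs together. Replicate 1, where Actl7b was highest, was thus the RS library with almost no reads on Gm26657 in each genotype. With the counts of both contigs summed, a step chosen after their counts had been seen, RS stood at 1024, 821 and 846 CPM (wt/wt) and at 1033, 844 and 870.1 CPM (dcat/dcat). The summed ES levels were 549, 342 and 551 CPM for wt/wt and 526, 332 and 488 CPM for dcat/dcat. The stages stayed apart, and the log2 change of the sum was -0.90 (SE 0.21, q = 0.00338) in wt/wt and -1.03 (SE 0.21, q = 0.00135) in dcat/dcat.

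Actl7b alone was counted from 124 to 1231 reads per library, and its coefficient of variation in wt/wt males was 23.8% in RS and 30.3% in ES. In wt/wt males the call was lost without RS replicate 1, at a log2 change of -0.58 (q = 0.0995), and without ES replicate 2, at -0.48 (q = 0.204). In dcat/dcat males it was lost without ES replicate 2, at -0.74 (q = 0.0512). With the summed counts the fall stayed called without any 1 of the 12 libraries, at q up to 0.0460 in wt/wt (without ES replicate 2, log2 change -0.64) and up to 0.00939 in dcat/dcat. The direction was the same under all settings tried, and with total counts as the only scaling the change was -1.50 in wt/wt and -1.64 in dcat/dcat.

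Because both genes of the pair are read in the same libraries, their ratio does not depend on scaling. The RS libraries had 4.96, 3.59 and 3.04 Actl7b reads per Actl7a read for wt/wt, and 4.90, 4.50 and 3.49 for dcat/dcat. The ES libraries had 1.10, 0.833 and 1.25 for wt/wt, and 1.19, 0.855 and 1.21 for dcat/dcat. The 6 ES libraries lay from 0.833 to 1.25 and the 6 RS libraries from 3.04 to 4.96, so the stages did not overlap. With the reads of Gm26657 added to Actl7b they lay from 0.917 to 1.30 in ES and from 3.72 to 5.15 in RS. As a share of the reads of the 10 genes, Actl7b took 34.0% to 52.1% in the RS libraries and 6.73% to 12.1% in the ES libraries. Actrt2 went the other way, with 11.8% to 18.7% in RS against 30.7% to 34.0% in ES. These ratios were computed after the values of the pair had been seen and are given without a test.

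**Figure D3:**
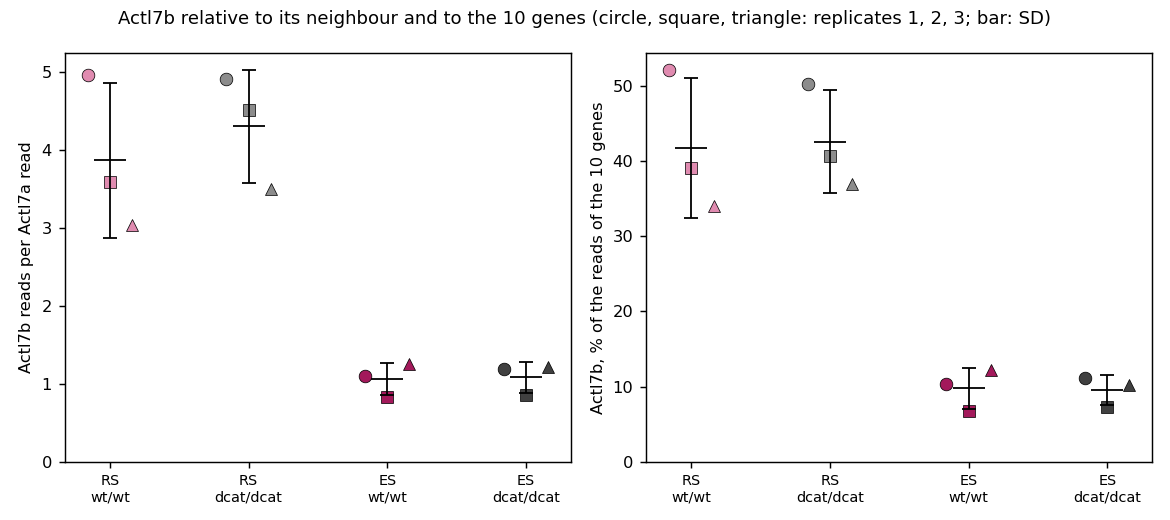
Actl7b reads per Actl7a read (left) and Actl7b as a percentage of the reads of the 10 genes (right) in each library, both on linear axes from 0, with replicates 1, 2 and 3 as circles, squares and triangles and the mean and SD of 3 libraries. The ratio lies between 3.04 and 4.96 in the 6 RS libraries and between 0.833 and 1.25 in the 6 ES libraries.

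Actl9 encodes an actin-like protein that acts with ACTL7A at the theca. Its level was 214, 230.0 and 284 CPM in RS wt/wt and 1059, 742 and 802 CPM in ES wt/wt. For dcat/dcat males it was 217, 233 and 269 CPM in RS and 965, 689 and 843 CPM in ES. All ES libraries lay above all RS libraries, with replicate 1 highest and replicate 2 lowest in ES of both genotypes. Its log2 change was 1.84 (SE 0.19, q = 4.74e-06) in wt/wt and 1.79 (SE 0.19, q = 7.65e-06) in dcat/dcat.

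The 3 Actrt genes encode actin-related proteins T1, T2 and T3 of the theca. Actrt1, on chromosome X, stood at 19.1, 16.7 and 25.4 CPM in RS wt/wt and at 97.2, 126 and 113 CPM in ES wt/wt. Its dcat/dcat levels were 6.41, 13.1 and 28.0 CPM in RS and 99.7, 94.9 and 82.7 CPM in ES. The RS dcat/dcat libraries were the most spread, on 6, 10 and 34 reads, and still lay below every ES library. The log2 change was 2.42 (SE 0.36, q = 9.67e-05) in wt/wt and 2.47 (SE 0.37, q = 1.20e-04) in dcat/dcat, the highest estimates of the set, and their intervals overlapped those of most other genes. The size in dcat/dcat depended on RS replicate 3, the library with 34 reads, without which the log2 change was 3.24 (q = 3.24e-05), and over the other left-out libraries it was 2.10 or more.

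Actrt2 had the smallest q of the set in both genotypes. It stood at 233, 332 and 378 CPM in RS wt/wt and at 1749, 1389 and 1420 CPM in ES wt/wt. The dcat/dcat libraries stood at 260, 329 and 344 CPM in RS and at 1500.1, 1453 and 1442 CPM in ES. The stages were far apart, and replicate 1 was the lowest library in RS and the highest in ES in both genotypes. On the log2 scale Actrt2 rose by 2.27 (SE 0.19, q = 1.67e-06) in wt/wt and by 2.23 (SE 0.19, q = 3.11e-06) in dcat/dcat, or 4.83-fold and 4.71-fold.

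Actrt3, whose protein binds the testis profilin PFN3, was counted from 16 to 82 reads per library. It stood at 23.3, 25.0 and 38.4 CPM in RS wt/wt and at 101, 156 and 98.9 CPM in ES wt/wt. In dcat/dcat males it stood at 17.1, 26.2 and 34.6 CPM in RS and at 95.1, 97.4 and 77.7 CPM in ES. The stages did not overlap, and replicate 3 was the highest RS library in both genotypes. The log2 change was 2.02 (SE 0.30, q = 9.55e-05) in wt/wt and 1.77 (SE 0.31, q = 3.95e-04) in dcat/dcat.

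Capza3 encodes the sperm form of the alpha subunit of the capping protein, which closes the fast-growing end of actin filaments. It stood at 154, 179.9 and 259 CPM in RS wt/wt and at 938, 1027 and 773 CPM in ES wt/wt. Under the dcat allele it stood at 199.8, 203 and 236 CPM in RS and at 777, 866 and 805 CPM in ES. Each ES library was at more than double the highest RS library. The rise was 4.61-fold in wt/wt (95% interval 3.44 to 6.17, q = 1.87e-06) and 3.82-fold in dcat/dcat (2.86 to 5.11, q = 5.31e-06).

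For each of the 10 genes the levels thus fell into 1 order by stage, with both ES groups above both RS groups for 9 genes and below them for Actl7b. Within a stage the wt/wt and dcat/dcat groups were neighbours in that order, and none of these neighbours passed the test of their difference, which is given next.

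The second question was whether loss of TENT5C activity changed the abundance of these transcripts within a stage. None of the 10 genes was called between dcat/dcat and wt/wt, in RS or in ES, where edgeR called 0.0% of all contigs in either comparison. At an unadjusted p under 0.05 there were 0 of the 10 genes in each stage, and 98 and 356 of all contigs. DESeq2 called 0 of the 10 genes too, with 0 contigs in all in RS and 1 in ES. In RS the log2 differences, dcat/dcat over wt/wt, ran from -0.33 (Actrt1) to 0.32 (Ccin), with 5 above 0 and 5 below. In ES they ran from -0.42 (Actrt3) to 0.14 (Cylc2), with 8 below 0 and a median of -0.13, beside 0.01 over all contigs.

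The genotypes were sorted side by side, and in RS the libraries of the same replicate number deviated together, so they were also compared number by number. Ccin and Actl7b were higher in dcat/dcat in 3 of 3 such pairs in RS, and Cylc2 was in ES, while Actl7a and Actrt3 were lower in 3 of 3 pairs in ES. All 3 pairs pointed 1 way in 26.2% of all contigs in RS and in 28.1% in ES, beside 2 and 3 of the 10 genes. With the replicate number as a block in edgeR the log2 difference in RS was 0.31 for Ccin and 0.07 for Actl7b. In ES it was -0.14 for Actl7a, -0.44 for Actrt3 and 0.13 for Cylc2. None of the 10 genes was called by this fit, which called 3 of all 11831 contigs in RS and 1 in ES.

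The intervals say how large a difference could have gone unseen. They come from the fit without a replicate block, so variation shared by libraries of the same number is counted in them. Actl7a had the narrowest interval in both stages, from 0.725 to 1.21 of the wt/wt level in RS and, for ES, from 0.698 to 1.18. Cylc1 had the widest, from 0.492 to 2.04 in RS and, in ES, from 0.392 to 1.43. Actl7b lay from 0.720 to 1.52 in RS, and its ES interval was 0.627 to 1.36, while Capza3 lay from 0.811 to 1.43 and from 0.675 to 1.18. The missing calls therefore do not show that the genotypes were alike.

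**Figure D4:**
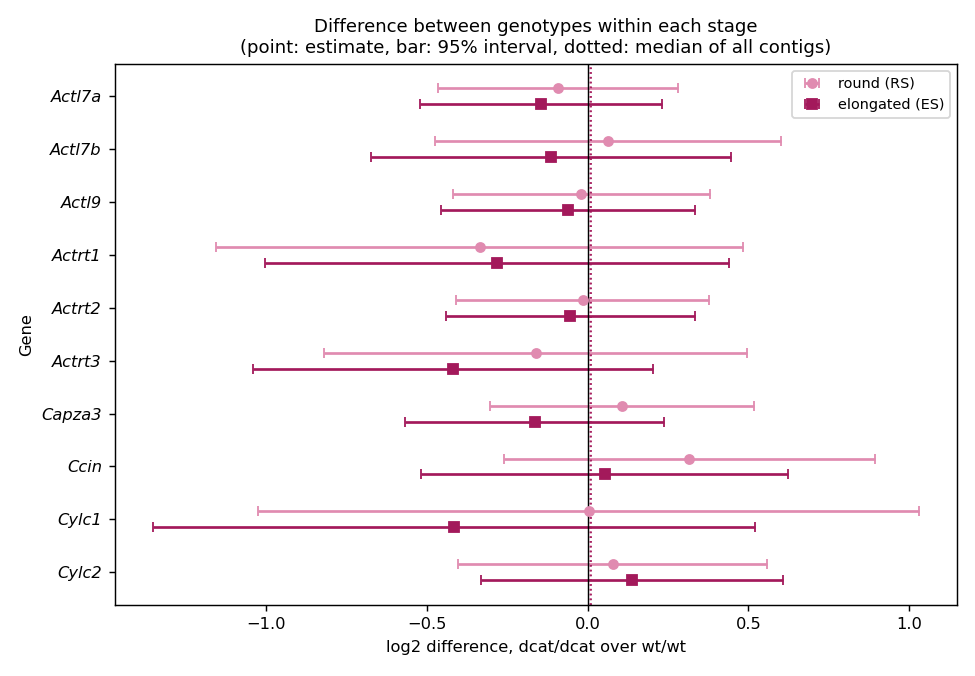
Log2 difference of dcat/dcat over wt/wt for each gene in RS (circles) and ES (squares), with 95% intervals and the median of all contigs as dotted lines near 0. All intervals include 0, and Cylc1 has the widest, from -1.35 to 0.52 in ES.

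Actrt3 in ES was the 1 gene of the set whose genotypes did not overlap. Its dcat/dcat libraries at 77.7, 95.1 and 97.4 CPM were below the wt/wt libraries at 98.9, 101 and 156 CPM. The log2 difference was -0.42 (SE 0.29, unadjusted p = 0.171 by edgeR) and was not called, and the gap between the nearest libraries was 97.4 to 98.9 CPM. Among all contigs, 7.66% did not overlap between genotypes in ES, and 5.31% did not in RS, where 0 of the 10 genes separated. Actrt1 in ES was higher in dcat/dcat in 1 of 9 pairs of libraries, at a log2 difference of -0.28 (SE 0.34, unadjusted p = 0.420).

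The change from RS to ES was also compared between the genotypes directly, by the interaction term. No gene of the set was called, beside 0.0% of all contigs, and 0 of the 10 genes and 170 of all contigs had an unadjusted p under 0.05. The interaction estimates ran from -0.42 for Cylc1 (SE 0.64, unadjusted p = 0.523) to 0.06 for Cylc2 (SE 0.32, unadjusted p = 0.855), on the log2 scale. For Actl7b it was -0.18 (SE 0.36, unadjusted p = 0.635), so its fall was not shown to differ between genotypes.

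The 10 genes were then set beside other genes of the theca and of the acroplaxome, the actin-rich plate that holds the acrosome. Of 20 such genes, 18 were tested through 29 contigs. Between RS and ES of wt/wt males 15 contigs rose, 4 fell and 10 were not called, and the median log2 change was 0.84. These are 51.7% and 13.8% of the 29 contigs, beside the 23.8% higher and 16.5% lower of all contigs given above. The dcat/dcat counts were also 15 that rose and 4 that fell, and 10 were not called, with a median of 1.09. With total counts as the only scaling 14 rose and 9 fell in each genotype. The median was then 0.13 in wt/wt and 0.43 in dcat/dcat, beside -0.96 and -0.85 over all contigs. Under that scaling 7364 of all 11831 contigs were called in wt/wt, 26.5% of them higher, and 6959 in dcat/dcat, 28.2% of them higher. The number that fell and the median thus depended on the scaling, and the median over all contigs moved with it.

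Of the genes that rose, the cysteine-rich Cypt genes of the theca were the most numerous, with 7 contigs of Cypt1, Cypt2, Cypt3, Cypt4 and Cypt12 and log2 changes from 1.44 (Cypt4) to 2.64 (Cypt3). Cypt12 stood at 544 ± 198 CPM in RS and at 3038 ± 353 CPM in ES of wt/wt males (mean ± SD, n = 3). Actl11, another actin-like gene, rose by 2.58, from 64.1 ± 12.4 to 389 ± 30.6 CPM. The egg activation factor Plcz1, the neighbour of Capza3, rose by 2.08, and Wbp2nl, which encodes a theca protein linked to egg activation, by 2.09.

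The capping protein works as a dimer of an alpha and a beta subunit, and its genes did not move together. Capzb, the beta subunit, rose in all 3 contigs tested, by 1.36 to 2.72 on the log2 scale, and Capza3, the sperm alpha subunit, rose 4.61-fold. Capza1, an alpha subunit used in most cells, fell by 0.83 on the log2 scale (q = 0.00329), from 238 ± 6.62 to 134 ± 14.3 CPM, and Capza2 stood at a log2 change of 0.09 (q = 0.890). The profilins also differed: Pfn3 rose by 0.84 (q = 0.0432) and the best counted contig of Pfn4 fell by 0.72 (q = 0.0234).

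Dpy19l2, a protein of the inner nuclear membrane under the acrosome, fell by 0.89 (q = 0.00138) and Spaca1, of the acrosomal membrane, by 0.85 (q = 0.00337) in wt/wt males. Fam209, a partner of DPY19L2, stood at a log2 change of -0.37 (q = 0.0856). Septin12, a filament protein of the sperm, had 3 contigs at -0.16, -0.05 and 0.34, none of them called, and Actl10 stood at -0.68 (q = 0.194).

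**Figure D5:**
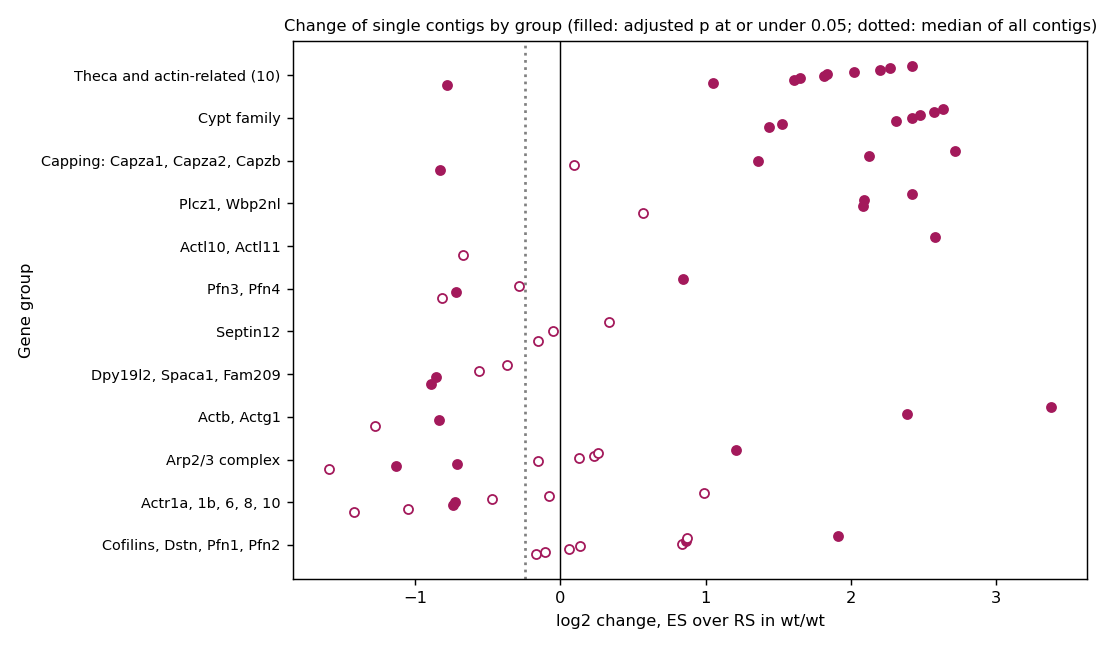
Log2 change from RS to ES in wt/wt males for each contig of the 10 genes and of the related theca and actin genes, by group, filled where q was at or under 0.05, with the median of all contigs at -0.24 as a dotted line. The Cypt contigs lie from 1.44 to 2.64, while the contigs of Dpy19l2, Spaca1 and Fam209 lie below 0.

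Of 22 listed general actin genes, 18 were tested through 27 contigs: in wt/wt males 5 rose, 5 fell and 17 were not called, with a median log2 change of -0.08, and in dcat/dcat males 6 rose, 4 fell and 17 were not called. The 5 each way are 18.5% of the 27 contigs, near the shares over all contigs. Actb, beta-actin, rose in both contigs tested, by 2.39 and 3.38, and its main contig rose to 1342 ± 258 CPM in ES from 256 ± 64.2 CPM in RS of wt/wt males. Actg1, gamma-actin, fell by 0.84 (q = 0.00376) in its main contig, from 1010.4 ± 253 to 565 ± 70.0 CPM. Cfl2, a cofilin that severs filaments, rose in 2 of 3 contigs, and of the Arp2/3 complex, which branches filaments, Actr2 rose by 1.21 while Arpc1a and Arpc2 fell by 1.13 and 0.71. Actr1a of the dynactin filament and Actr8 of a chromatin remodeller fell by 0.73 and 0.74. With total counts as the only scaling 3 of the 27 contigs rose and 13 fell in wt/wt males, with a median of -0.79. That scaling called 7364 of all 11831 contigs, 26.5% of them higher, with a median of -0.96. No contig of either list was called between genotypes.

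Actb and Actg1 are also made by Sertoli and Leydig cells, whose markers were higher in the ES libraries, and their part in these changes was not tested. For the 10 genes themselves no measure here separates spermatid from somatic RNA.

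Last, the contig of another gene with the most similar profile over the 12 libraries was looked up for each of the 10 genes, by the Pearson correlation of log2 CPM. The search covered 3567 to 3568 contigs with at least 10 reads in every library. The correlations are high because all 12 libraries share the split by stage, and they are given as a description. They were 0.998 for Capza3 with 1700019D03Rik, 0.997 for Actrt2 with Lrrc18, 0.997 for Actl9 with 2810408A11Rik, 0.994 for Actl7a with Ccsap and 0.993 for Cylc2 with Tmem205. They were 0.989 for Ccin with semp2l2a, 0.987 for Actrt1 with Cypt1, 0.986 for Actrt3 with Spata33 and 0.948 for Cylc1 with msantd5l. Actl7b was most like Dmrtb1 (0.983), which had a log2 change of -1.19 from RS to ES in wt/wt males, whereas the nearest contigs of the other 9 genes all had changes above 0. The contigs were picked by profile over libraries split by stage, so these shared directions follow from the search.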

How the data were processed

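Nanopore direct RNA sequencing was done by the authors on 12 libraries. They called bases with Guppy, aligned reads to GENCODE vM17 transcripts on GRCm38 with minimap2 (2.20-r1061 in the submitters' processing notes), demultiplexed with Deeplexicon and kept reads with a passing poly(A) tail call from Nanopolish. The deposited table holds whole-number counts of reads per contig, without normalization. Poly(A) selection and the tail filter can change counts and cannot be undone. Further deposited tables hold the authors' DESeq2 fold changes and adjusted p-values, of which only the gene symbols were used.

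Groups and replicate numbers came from the sample labels. The test was edgeR's (version 4.0.16, R 4.3.3; TMM scaling, quasi-likelihood, not robust, 1 mean per group, all 12 libraries in 1 fit), and it covered contigs that reached 10 reads in 2 or more libraries of some group. P-values were adjusted by Benjamini-Hochberg over all 11831 contigs, and contigs with q at or under 0.05 were called. The SE was taken from the same fit. Alternatives were DESeq2 1.42.0, other scalings, other filters, counts summed by gene, a fit of only the groups compared, robust moderation, a replicate block and leaving out each library. Counts of Actl7b summed with those of the overlapping Gm26657 were added after the counts had been seen. The fit was tested on simulated counts. No pair of libraries of a group held identical counts or differed by as little as counting noise. Intervals and floors cover counting error only where they come from counts alone.

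Positions came from GENCODE vM21 (10 of 10 contigs matched), promoters from RefSeq, and coding sequences of vM21 were aligned with Biopython 1.88. The genes and lists were chosen with earlier results of these data known. All 10 genes are named. From the actin list up to 5 genes per direction with the smallest q in ES against RS of wt/wt are named. In the theca list this limit was passed for genes that rose, where further called genes such as Pfn3 are named. Uncalled genes among the first of each role are named too.

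Whether replicate numbers pair libraries was checked by correlating deviations from group means between same-numbered libraries over 11831 contigs. All 3 were over 0.1 between the genotypes in RS (0.70, 0.38 and 0.47) and between the stages in dcat/dcat (0.52, 0.25 and 0.29), but not between the genotypes in ES (lowest 0.03) or between the stages in wt/wt (lowest -0.09). Over the 3719 contigs with at least 10 reads in every library, all 3 were over 0.1 in ES too (0.69, 0.51 and 0.13), and between the stages in wt/wt the lowest was -0.25. Per the methods, each sort session held 1 mouse of each genotype and all cell types came from the same mouse, but which sessions a replicate number pools is not given in the sources used here.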

Additional observations from a re-analysis of the deposited data

How the results depend on the processing

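The number of the 10 genes called from RS to ES was 10 in each genotype by edgeR and by DESeq2. It ran from 8 to 10 over the other settings, and over left-out libraries from 9 to 10 in wt/wt and from 8 to 10 in dcat/dcat. It was 9 and 8 with total counts only, where 7364 and 6959 of all 11831 contigs were called. It was 8 of 8 tested with at least 10 reads in every library, which leaves out Actrt1 and Cylc1. That filter called 2588 of 3719 contigs in wt/wt and 2562 in dcat/dcat, so most well-counted contigs were called. With the replicate block all 10 stayed called in each genotype, 0 were called between genotypes or for the interaction, and no call changed. The block called 6105 of all 11831 contigs in wt/wt and 6145 in dcat/dcat, and DESeq2 called 4278 and 4426. With Actl7b summed with Gm26657, a setting chosen after seeing the data, 10 stayed called in each genotype. No setting called any of the 10 genes between genotypes or for the interaction.

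Of the stage changes, none turned direction in 209 values per genotype. The signs of small genotype differences were not stable, and none of these values was past the threshold. Without a filter Cylc1 in RS was at -0.010. Over left-out libraries the log2 difference in RS ran from -0.032 to 0.54 (Ccin), -0.15 to 0.025 (Actl7a), -0.11 to 0.27 (Actl7b), -1.10 to 0.041 (Actrt1), -0.20 to 0.12 (Actrt2), -0.44 to 0.10 (Actrt3), -0.058 to 0.33 (Capza3), -0.25 to 0.19 (Cylc1), -0.034 to 0.13 (Cylc2) and -0.11 to 0.085 (Actl9). In ES it ran from -0.064 to 0.18 (Ccin), -0.35 to 0.075 (Actl7b), -0.12 to 0.052 (Actrt2), -0.022 to 0.35 (Cylc2) and -0.18 to 0.10 (Actl9).

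Of the wt/wt stage calls over all contigs, 59.0% were higher in the main fit. This share was 47.95% with at least 10 reads in every library and 65.7% by DESeq2. Over all settings it ran from 26.5%, with total counts only, to 71.9%, without ES wt/wt replicate 2. Cylc1 rests on 4 to 20 reads per library, and Actl7b overlaps Gm26657, whose reads the counts alone do not tell apart from its own. Single animals and the sort purity of each library were not analysed here.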
